A study of Mus musculus with 6 samples.

Results

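Genes that mark endothelial cells, the cells lining blood vessels, were followed in sorted Tomato+ cells of mouse knee cartilage. The 10 genes were Pecam1, Cdh5, Esam, Cldn5, Tie1, Tek, Robo4, Emcn, Plvap and Egfl7, taken by symbol from the 17854 genes of the deposited table, and their measured values played no part in the rule. All 10 were in the table and all 10 were among the 14289 genes that passed the filter on low counts. The question was how much RNA of vessel genes the libraries held and whether it differed between the groups.

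The study sorted Tomato+ cells by flow cytometry from collagenase-digested articular cartilage and sequenced their total RNA. One group, called MSC-derived here, came from the repaired cartilage of C57BL/6 male mice with knee osteoarthritis (KOA) brought on by cutting the anterior cruciate ligament, for which the study used animals 8 weeks old. These mice had received, in the study's scheme 4 weeks after surgery, an injection into the joint of mesenchymal stromal cells (MSCs) of the Prrx1 lineage, isolated from inguinal white fat of donors carrying Prrx1-Cre and R26 tdTomato. The other group, called endogenous, came from the joints of Prrx1-Cre; R26 tdTomato mice matched for sex and age. Each group had 3 libraries, and the methods give 3 mice for each group without saying whether a library held 1 mouse or several, so p-values measure only the spread between these libraries. Prrx1-Cre is active in limb mesenchyme, and the red label then stays in all descendants of a cell that once expressed it. In the MSC-derived group the label came with the injected cells, while in the endogenous group every Prrx1-lineage cell of the joint carried it, so cell source, disease and host genotype cannot be told apart. The age of the animals at harvest for sequencing is not given in the sources used here.

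Endothelial cells are joined to one another by VE-cadherin (Cdh5), PECAM-1, ESAM and claudin-5, and they carry the receptor TIE2 (Tek), through which angiopoietins steady or loosen the vessel wall, with its partner TIE1. Mature articular cartilage has no vessels of its own, while the bone beneath it and the synovium are vascular. Several of these genes are not restricted to endothelium: Pecam1 is also carried by platelets, monocytes and neutrophils, Esam by platelets and blood stem cells, and Tek by blood stem cells and some macrophages.

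Promoter windows are shown first for 4 of the genes. These are the receptor pair Tie1 and Tek, and Emcn and Cldn5, which were listed at 0 in 1 endogenous library. Each window runs from 250 bases before to 50 after a RefSeq transcription start on GRCm38.p6 and is written 5′ to 3′ on the strand of the gene. Capitals mark GGAA or its reverse complement TTCC, the core letters bound by ETS factors, a family that includes the endothelial factors ERG and FLI1. The windows lie at chr4:118489800-118490099 on the minus strand for Tie1, and on the plus strand at chr4:94739039-94739338 for Tek, chr3:137340828-137341127 for Emcn and chr16:18776597-18776896 for Cldn5.
Tie1: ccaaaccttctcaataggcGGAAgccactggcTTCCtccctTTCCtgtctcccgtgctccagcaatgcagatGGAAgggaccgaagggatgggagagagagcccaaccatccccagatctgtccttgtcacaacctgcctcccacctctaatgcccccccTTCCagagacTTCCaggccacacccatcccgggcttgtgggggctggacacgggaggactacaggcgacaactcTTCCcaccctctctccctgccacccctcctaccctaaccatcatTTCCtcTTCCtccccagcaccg
Tek: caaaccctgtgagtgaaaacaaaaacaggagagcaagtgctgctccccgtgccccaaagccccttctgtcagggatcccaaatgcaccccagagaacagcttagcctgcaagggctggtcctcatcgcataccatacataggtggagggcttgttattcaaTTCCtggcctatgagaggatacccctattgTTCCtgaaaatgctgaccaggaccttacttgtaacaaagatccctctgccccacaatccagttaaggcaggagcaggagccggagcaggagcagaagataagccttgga
Emcn: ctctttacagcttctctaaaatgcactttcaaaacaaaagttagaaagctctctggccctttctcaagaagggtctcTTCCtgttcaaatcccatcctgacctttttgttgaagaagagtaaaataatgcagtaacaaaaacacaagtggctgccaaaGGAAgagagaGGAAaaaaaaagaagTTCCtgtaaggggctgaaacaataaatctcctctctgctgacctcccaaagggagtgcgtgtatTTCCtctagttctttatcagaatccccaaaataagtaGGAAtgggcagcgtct
Cldn5: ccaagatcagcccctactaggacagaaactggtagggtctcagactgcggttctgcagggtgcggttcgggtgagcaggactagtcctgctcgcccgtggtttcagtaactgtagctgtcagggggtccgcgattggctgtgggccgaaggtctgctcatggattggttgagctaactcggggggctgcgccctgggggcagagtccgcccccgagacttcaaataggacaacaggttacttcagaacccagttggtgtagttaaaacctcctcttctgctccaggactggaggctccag

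RefSeq gave 8 windows for 6 of the 10 genes, 3 of them for Egfl7 and 1 each for Emcn, Tek, Tie1, Robo4 and Cldn5. The Tie1 window held GGAA 9 times, counting both strands, a number reached by 1.59% of the 32851 windows of this length in the RefSeq table. Emcn held 6, a number reached by 15.7% of windows. Robo4 held 4 (reached by 46.3%) and Tek 2 (84.6%). The windows of Egfl7 held 5, 4 and 1 (28.6%, 46.3% and 96.0%). Cldn5 held 0, as few windows did. At least 1 GGAA was present in 7 of the 8 windows and in 96.0% of all windows. The longer letters CAGGAA, which contain GGAA, were present in 6 of the 8 windows and in 30.6% of all. AACAGGA, letters of a joint FOX and ETS site that stop short of a full GGAA core, were present in 4 of the 8 (2 of Egfl7, Emcn and Tek) and in 6.40% of all. In Emcn and in the Egfl7 window with 5 GGAA, the match ran on into CAGGAA. In Tek and in the Egfl7 window with 4 GGAA it did not, so those matches lacked the full ETS core. CCGGAA was in 0 of the 8 against 14.9% of all, AGATAA, the letters of a GATA site, in 1 (Tek) against 11.2%, and ACAAT, of a SOX site, in 3 against 31.0%. These matches describe letters in a window and were not tested.

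The libraries held 22060628 to 24559959 counts in the MSC-derived group and 23441005 to 24881796 in the endogenous group, and a floor of 3 counts stood at 0.121 to 0.136 CPM (counts scaled to a library of 1000000), for counting error only. The MSC-derived libraries lay close together and endogenous replicate 1 stood apart: the chi-square per gene, which is 1 for counting noise alone, was 3.87 to 4.29 within the MSC-derived group. It was 5.44 for endogenous replicates 2 and 3 set against each other, and 58.6 and 55.3 when replicate 1 was set against them. Endogenous replicate 1 listed 3459 genes at 0, compared with 1338 and 1395 in the other endogenous libraries. Of 4083 genes that averaged 20 to 200 counts in endogenous replicates 2 and 3, 487 (11.9%) were listed at 0 in replicate 1. Its effect on the calls is given beside the results it changes.

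RNA of all 10 vessel genes was present in both groups, and 5 of them were higher in the MSC-derived cells, by 2.31-fold (Tie1) to 4.50-fold (Pecam1). Summed over the 10 genes, TPM (a level per transcript length that sums to 1000000 in a library) were 72.7, 76.2 and 71.2 for MSC-derived replicates 1 to 3, compared with 44.6, 47.1 and 63.5 for endogenous replicates 1 to 3, or 73.4 ± 2.55 against 51.8 ± 10.3 (SD, n = 3). Plvap was the most abundant of the 10 in each group and, on this scale, lower in every MSC-derived library. Without Plvap, the sums were 56.0 ± 2.74 and 27.5 ± 8.98 TPM (SD, n = 3), a wider gap. The 10 genes together took 0.0120% to 0.0129% of all counts in the MSC-derived libraries and 0.00497% to 0.00714% in the endogenous ones. In these bulk samples, fewer endothelial cells and less RNA per cell cannot be told apart.

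**Figure D1:**
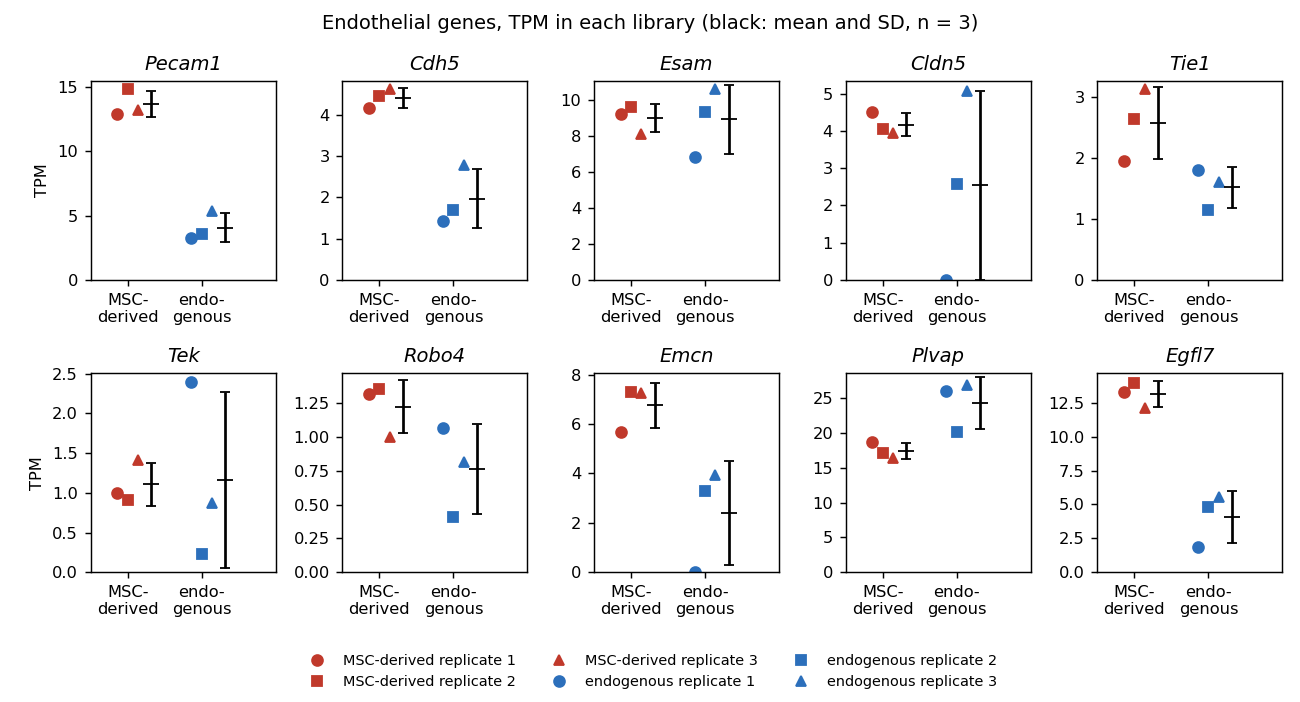
Level of each endothelial gene in TPM (y axis, from 0) in the 3 MSC-derived (red) and 3 endogenous (blue) libraries, with the mean and SD of each group in black and the replicates told apart by marker shape. Pecam1, Cdh5, Tie1, Emcn and Egfl7 lay higher in every MSC-derived library, Plvap lay lower in every MSC-derived library, and Cldn5 and Emcn sat at 0 in endogenous replicate 1.

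Of the 10 genes, 5 were higher in the MSC-derived cells (Pecam1, Cdh5, Tie1, Robo4 and Egfl7) and 0 were lower in edgeR's quasi-likelihood test, at an adjusted p of 0.05 or less over all genes tested. In the same fit 31.3% of all genes were higher and 30.3% were lower, 61.6% being called in either direction, and the median log2 fold change was 0.05 over all genes and 1.21 over these 10. At an unadjusted p under 0.05 the same fit gave 5 higher and 0 lower, and DESeq2 also called 5 higher and 0 lower, against 28.8% and 29.6% of all genes. At an adjusted p of 0.001 or less 1 was higher (Pecam1) and 0 lower, against 14.9% and 16.7%. On log2(TPM + 1), limma called 3 higher (Pecam1, Cdh5 and Egfl7) and 1 lower (Plvap), against 21.9% and 41.7% of all genes. Without endogenous replicate 1, 7 were higher and 0 lower, Emcn and Tek being added, against 37.8% and 38.6% of all genes. On CPM scaled by edgeR's TMM method, 8 of the 10 were higher in every MSC-derived than in every endogenous library, which held for 38.2% of all genes, with 34.1% lower in every one and 72.4% apart in either direction. The gap was narrow for Esam (10.63 against 10.59 CPM) and Cldn5 (3.804 against 3.725 CPM). On the TPM scale 6 of the 10 were without overlap, of which 5 were higher (25.2% of all genes) and Plvap was lower (47.4% of all genes).

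**Figure D2:**
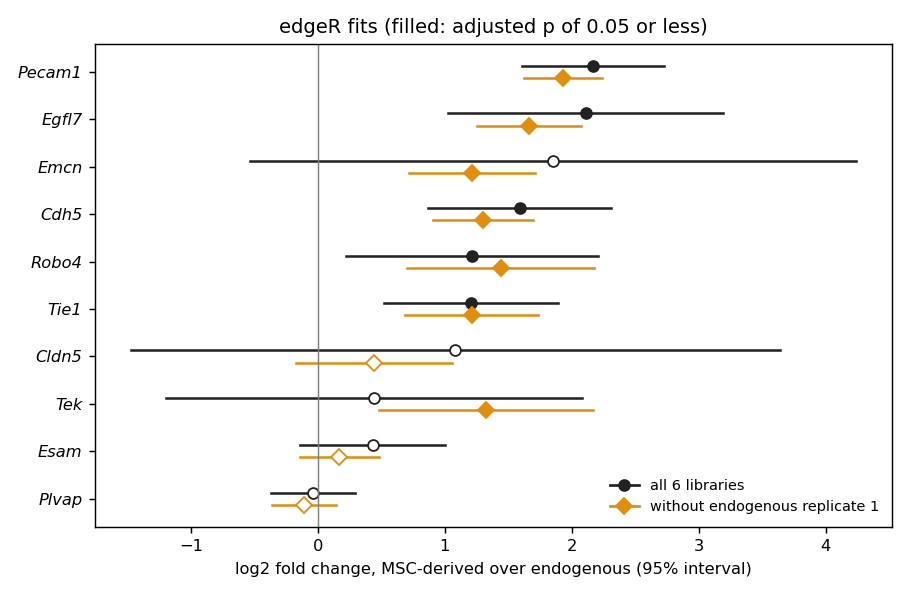
Log2 fold change of MSC-derived over endogenous (x axis) with its 95% interval for each gene, from edgeR fits to all 6 libraries (black circles) and without endogenous replicate 1 (orange diamonds), filled where the adjusted p was 0.05 or less. The intervals of Emcn, Cldn5 and Tek narrowed without that library, and Plvap sat beside 0 in both fits.

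The junction genes ranged from the largest rise among the 10 to no call. Pecam1 (NCBI gene 18613) encodes the adhesion molecule PECAM-1 (CD31) of endothelial junctions. Its counts were 784, 876 and 737 in the MSC-derived libraries and 121, 150 and 238 in the endogenous libraries. Every MSC-derived library lay far above every endogenous one. The log2 fold change was 2.17 (SE 0.24, 95% interval 1.61 to 2.73, edgeR adjusted p = 0.000148), and the levels were 13.6 ± 1.04 and 4.07 ± 1.13 TPM (SD, n = 3).

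Cdh5 (NCBI gene 12562) encodes VE-cadherin, the cadherin of endothelial adherens junctions and the most restricted marker of the group. It had 314, 319 and 315 counts in the MSC-derived libraries and 64, 88 and 150 in the endogenous ones. The MSC-derived counts were almost equal to one another, and the highest endogenous library lay well below them. Cdh5 rose by 1.59 on the log2 scale (SE 0.31, 95% interval 0.87 to 2.31, edgeR adjusted p = 0.00292), from 1.96 ± 0.713 TPM in the endogenous to 4.40 ± 0.237 TPM in the MSC-derived cells (SD, n = 3).

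Esam (NCBI gene 69524), an immunoglobulin-type adhesion molecule of tight junctions, was read at 305, 303 and 243 counts in the MSC-derived and 136, 212 and 253 in the endogenous libraries. Endogenous replicate 3 exceeded MSC-derived replicate 3 in counts, and after TMM scaling the groups were apart only by 10.63 against 10.59 CPM. Esam did not pass the test, with a log2 fold change of 0.43 (SE 0.24, 95% interval -0.14 to 1.00, edgeR adjusted p = 0.161). Its levels, 8.98 ± 0.778 and 8.93 ± 1.92 TPM (SD, n = 3), were close in the groups.

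Cldn5 (NCBI gene 12741) encodes claudin-5, the claudin that seals endothelial tight junctions. Its counts were 110, 94 and 87 in the MSC-derived libraries and 0, 43 and 89 in the endogenous libraries. The endogenous libraries covered the whole range from a listed 0, for which the exact 95% Poisson interval reaches 3.69 counts, to a value among those of the MSC-derived group. After TMM scaling the groups were apart only by 3.804 against 3.725 CPM. On the TPM scale endogenous replicate 3, at 5.07, lay above every MSC-derived library. Cldn5 did not pass the test with all libraries (log2 fold change 1.08, SE 1.09, 95% interval -1.47 to 3.64, edgeR adjusted p = 0.415) or without endogenous replicate 1 (0.44, SE 0.29, adjusted p = 0.175). Without endogenous replicate 3 the estimate was 2.07, and it was not called either (adjusted p = 0.216).

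Of the receptors, Tie1 and Robo4 passed the test and Tek did so only without endogenous replicate 1. Tie1 (NCBI gene 21846), an orphan receptor tyrosine kinase that works beside TIE2, had 143, 184 and 207 counts in the MSC-derived libraries and 79, 58 and 85 in the endogenous libraries. The groups did not overlap, and the spread among the MSC-derived libraries was wider than for the junction genes. The log2 fold change was 1.21 (SE 0.29, 95% interval 0.52 to 1.89, edgeR adjusted p = 0.00864), with 2.57 ± 0.588 and 1.52 ± 0.334 TPM (SD, n = 3). On log2 TPM, limma did not call it (adjusted p = 0.0503 to 0.0720 with different pseudocounts and filters).

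Tek (NCBI gene 21687), which encodes the angiopoietin receptor TIE2, had 90, 78 and 114 counts in the MSC-derived libraries and 128, 14 and 56 in the endogenous libraries. Endogenous replicate 1 was the highest of all 6 and endogenous replicate 2 the lowest, a 9.11-fold span in CPM that was the widest among the genes above 0 in every endogenous library. Tek did not pass the test with all libraries (log2 fold change 0.44, SE 0.70, 95% interval -1.20 to 2.08, edgeR adjusted p = 0.605). Without endogenous replicate 1 it rose by 1.33 (SE 0.40, adjusted p = 0.00583), and without endogenous replicate 2 the estimate was -0.05 (adjusted p = 0.935).

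Robo4 (NCBI gene 74144), a roundabout receptor of endothelium that steadies vessels, was counted 94, 89 and 65 times in the MSC-derived and 45, 20 and 36 times in the endogenous libraries. The groups did not overlap in counts, but the lowest MSC-derived library came within reach of the highest endogenous one. Its rise of 1.21 (SE 0.42, 95% interval 0.22 to 2.21, edgeR adjusted p = 0.0389) had the largest adjusted p of the 5 calls. With any 1 library left out other than endogenous replicate 1, the adjusted p of Robo4 was between 0.0809 and 0.130, and limma on log2 TPM did not call it either.

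Of the surface and secreted products, Egfl7 rose, Emcn rose once endogenous replicate 1 was left out, and Plvap did not pass the edgeR test. Egfl7 (NCBI gene 353156) encodes a secreted protein that endothelial cells lay down along the vessel wall. It had 294, 299 and 236 counts in the MSC-derived libraries and 22, 67 and 94 in the endogenous libraries. All MSC-derived libraries lay above all endogenous ones, with endogenous replicate 1 the lowest. Egfl7 rose by 2.11 on the log2 scale (SE 0.46, 95% interval 1.03 to 3.20, edgeR adjusted p = 0.00539), with 13.1 ± 0.946 against 4.08 ± 1.93 TPM (SD, n = 3), and by 1.66 (SE 0.19) without endogenous replicate 1.

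Emcn (NCBI gene 59308) encodes endomucin, a sialomucin of capillary and venous endothelium. The MSC-derived libraries had 144, 174 and 163 counts, and the endogenous libraries had 0, 56 and 72. Even the highest endogenous library lay below the lowest MSC-derived one, and endogenous replicate 1 was listed at 0. The log2 fold change was 1.85 (SE 1.02, 95% interval -0.54 to 4.24, edgeR adjusted p = 0.152) with all libraries and 1.21 (SE 0.24, adjusted p = 0.000118) without that library.

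Plvap (NCBI gene 84094) encodes the protein of the diaphragms that span endothelial fenestrae and caveolae. Its counts were 680, 591 and 542 in the MSC-derived libraries and 570, 502 and 703 in the endogenous libraries, so the groups overlapped. It did not pass the test, with a log2 fold change of -0.04 (SE 0.14, 95% interval -0.37 to 0.29, edgeR adjusted p = 0.812), the narrowest interval of the 10. On the TPM scale, where the median gene was 0.28 to 0.34 lower in the MSC-derived cells (log2(TPM + 1) and log2(TPM + 0.1)), Plvap was at 17.4 ± 1.13 against 24.3 ± 3.70 TPM (SD, n = 3) and limma called it lower (log2 fold change -0.45, adjusted p = 0.0224 on log2(TPM + 1)). With counts scaled by library totals alone, where the median gene was 0.16 higher, its estimate was 0.07.

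The genes were therefore not in the same proportions in the groups. Plvap was the most abundant of the 10 in each group, but its share of their summed TPM was 22.4% to 25.6% in the MSC-derived group and 42.3% to 58.2% in the endogenous group. Relative to Cdh5 in the same library, Plvap stood at 3.56 to 4.49 in the MSC-derived and 9.71 to 18.3 in the endogenous libraries, and Esam at 1.76 to 2.22 and 3.83 to 5.49. Pecam1 went the other way, at 2.86 to 3.34 times Cdh5 in the MSC-derived libraries and 1.94 to 2.30 in the endogenous ones. For the remaining 6 of the 9 ratios the groups overlapped. The ratio of Tek to Cdh5 was 0.205 to 0.305 in the MSC-derived libraries and 1.68, 0.135 and 0.314 in endogenous replicates 1 to 3. These ratios are a description, with no test.

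**Figure D3:**
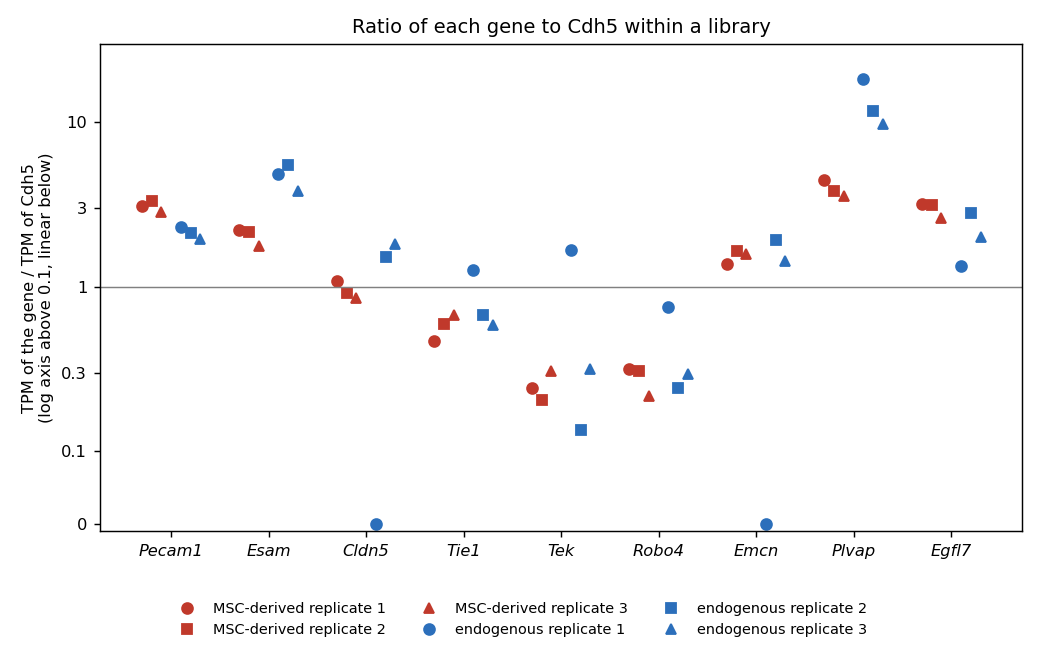
Ratio of the TPM of each gene to that of Cdh5 in the same library (y axis, logarithmic above 0.1 and linear below), for MSC-derived (red) and endogenous (blue) libraries, marker shape giving the replicate. The groups are apart for Pecam1, Esam and Plvap, and on this axis the endogenous libraries scatter most for Cldn5, Tek, Robo4 and Emcn.

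The order of levels by mean TPM in the MSC-derived cells was Plvap, Pecam1, Egfl7, Esam, Emcn, Cdh5, Cldn5, Tie1, Robo4 and Tek. Of the 9 neighbouring pairs in that order, 6 did not overlap between libraries, and the pairs that did were Pecam1 with Egfl7, Cdh5 with Cldn5, and Robo4 with Tek. In the endogenous cells the order was Plvap, Esam, Egfl7, Pecam1, Cldn5, Emcn, Cdh5, Tie1, Tek and Robo4, and only the first 2 steps, Plvap over Esam and Esam over Egfl7, were without overlap. By mean TPM among all genes of the table, the 10 genes fell between percentile 34.7 (Tek) and 73.2 (Plvap) in the MSC-derived cells, and between 26.1 (Robo4) and 75.1 (Plvap) in the endogenous cells. Pecam1 stood at percentile 69.1 in the MSC-derived and 43.6 in the endogenous cells, and Egfl7 at 68.4 and 43.6.

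The spread among replicates also differed. The coefficient of variation of TMM-scaled CPM had a median over the 10 genes of 8.44% (5.75% to 24.4%) in the MSC-derived libraries and 39.3% (14.2% to 99.3%) in the endogenous libraries. By edgeR's common dispersion over all genes, the biological coefficient of variation was 6.78% and 35.1%. Within the endogenous group, replicate 3 had the highest CPM for 8 of the 10 genes, replicate 1 the lowest for 6, and replicate 2 the lowest for the other 4. Tek and Robo4 were highest in replicate 1, the library in which Emcn and Cldn5 were listed at 0.

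Ligands and other partners of these genes were read in 6 further lists. Of their 66 genes, all tested, 21 (31.8%) were higher and 26 (39.4%) lower in the MSC-derived cells, beside 31.3% and 30.3% of all genes, so the share that was higher stood at the background. The median log2 fold change was 0.37. Without endogenous replicate 1, 29 (43.9%) were higher and 29 (43.9%) lower, beside 37.8% and 38.6% of all genes in that fit, the transcription factors going from 4 higher and 2 lower to 6 and 3, the junction genes from 2 and 9 to 3 and 9, the surface genes from 7 and 3 to 10 and 5, and the vessel type genes from 5 and 6 to 7 and 6. That library listed 8 of the 66 at 0 (Sox7, Nos3, Ecscr, Myct1, Aplnr, Gpihbp1, Apln and Car4), and no other library listed any of them at 0. Cd34, Mcam, Gata2 and Flt4 stand both in these lists and in a marker list described further on.

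**Figure D4:**
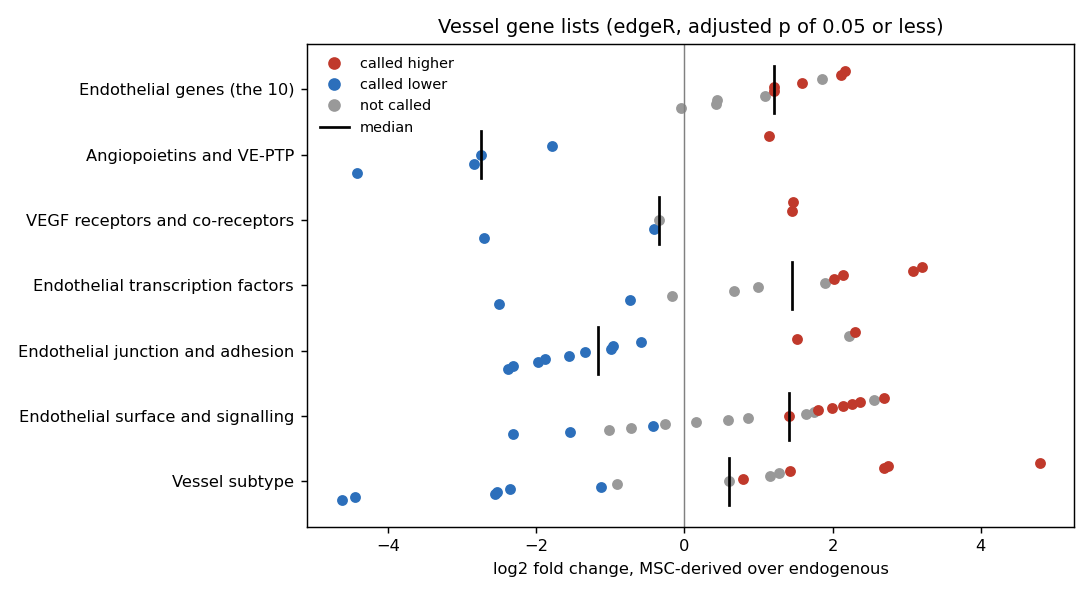
Log2 fold change of MSC-derived over endogenous (x axis) of each gene in the 10 endothelial genes and 6 further lists (rows), coloured by the edgeR call, with the median of each list as a black line. The 10 genes and the transcription factor and surface lists have medians of 1.21, 1.44 and 1.41, while the angiopoietin and junction lists have medians of -2.75 and -1.16.

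Around the TIE receptors, 1 of 5 genes was higher and 4 were lower, beside 31.3% and 30.3% of all genes. Ptprb, the phosphatase VE-PTP that acts on TIE2 and VE-cadherin, had 184, 175 and 153 counts in the MSC-derived and 56, 74 and 90 in the endogenous libraries, a rise of 1.15 (SE 0.26, edgeR adjusted p = 0.00685). The ligands were lower: Angpt1, the activating ligand of TIE2 and a product of mesenchymal and mural cells, fell by 2.84 on the log2 scale, from 6.50 ± 0.559 TPM in the endogenous to 0.683 ± 0.121 TPM in the MSC-derived cells (SD, n = 3). Angpt2, the context-dependent ligand, changed by -2.75, and Angpt4 by -4.42, the largest fall of this list (SE 0.20, 0.25 and 0.24, edgeR adjusted p = 1.23e-05, 4.96e-05 and 3.05e-06). Thus Tie1 was higher in the group in which all 3 angiopoietin genes were lower. Tek, which encodes the angiopoietin receptor TIE2, did not pass the test with all libraries (edgeR adjusted p = 0.605).

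Of the VEGF receptors and co-receptors, 2 of 5 were higher and 2 lower, beside 31.3% and 30.3% of all genes. Kdr, the main signalling receptor for VEGF on endothelium, had 206, 109 and 158 counts in the MSC-derived and 51, 41 and 73 in the endogenous libraries, and rose by 1.45 (SE 0.35, edgeR adjusted p = 0.00892). Flt1, the receptor that also acts as a trap for VEGF, rose by 1.46 (SE 0.35, edgeR adjusted p = 0.00824). Nrp2, a co-receptor for VEGF and semaphorins, fell by 2.70 (SE 0.10, edgeR adjusted p = 5.05e-07). Flt1 and Kdr thus lay in the same range of log2 fold changes as Cdh5 and Tie1.

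Of 10 endothelial transcription factors, 4 were higher and 2 lower, beside 31.3% and 30.3% of all genes. Their median log2 fold change was 1.44. Lmo2, an adaptor of blood and endothelial transcription complexes, rose most, by 3.21 (SE 0.21, edgeR adjusted p = 8.90e-06), and the other 3 that rose were Fli1, Tal1 and Lyl1, which blood cells also express. Erg, the ETS factor of endothelium that cartilage cells also express, had 230, 269 and 239 counts in the MSC-derived and 1283, 1301 and 1419 in the endogenous libraries, a log2 fold change of -2.51 (SE 0.12, edgeR adjusted p = 1.67e-06). The endothelial SOX factors Sox7, Sox17 and Sox18 did not pass the test with all libraries. Without endogenous replicate 1, Sox17 (3.26, edgeR adjusted p = 1.78e-05) and Sox18 (0.82, edgeR adjusted p = 0.0387) were higher, and Sox7 was at 0.03 (edgeR adjusted p = 0.931).

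Among 12 other junction and adhesion genes, 2 were higher (F11r and Podxl) and 9 lower, beside 31.3% and 30.3% of all genes. The median of the list was -1.16. In the endogenous cells all 9 stood above Cdh5 (1.96 TPM), from Tjp1 at 5.85 TPM to Ctnnb1 at 181 TPM. Which cells held this RNA was not tested. F11r, the junctional adhesion molecule JAM-A, rose most (2.30, SE 0.80, edgeR adjusted p = 0.0387) and Jam3 fell most (-2.38, SE 0.23, edgeR adjusted p = 6.68e-05). Icam2, an adhesion molecule of endothelium and platelets, had 189, 145 and 209 counts against 1, 48 and 63, and did not pass the test (2.22, SE 0.90, edgeR adjusted p = 0.0651). Leaving out that library, Icam2 was called higher (1.59, SE 0.25, edgeR adjusted p = 8.79e-06), and F11r, with 4 counts in it, was still called higher (1.70, SE 0.22, edgeR adjusted p = 5.68e-07).

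Of 19 surface and signalling genes of endothelium, 7 were higher and 3 lower, beside 31.3% and 30.3% of all genes. The median of the list was 1.41. Vwf, the clotting glycoprotein stored by endothelium and platelets, had 125, 118 and 75 counts in the MSC-derived and 30, 29 and 27 in the endogenous libraries, and rose by 1.80 (SE 0.36, edgeR adjusted p = 0.00342). Aplnr, the apelin receptor of sprouting vessels, rose most (2.70, SE 1.00, edgeR adjusted p = 0.0490) and the C-type lectin Clec14a fell most (-2.32, SE 0.48, edgeR adjusted p = 0.00426). Without endogenous replicate 1, Aplnr stood at 2.06 (SE 0.39, edgeR adjusted p = 7.72e-05) and Clec14a at -1.69 (SE 0.24, edgeR adjusted p = 2.66e-06). Of 15 genes that tell vessel types apart, 5 were higher and 6 lower, beside the same shares of all genes, with a median of 0.60. Car4, a capillary carbonic anhydrase, rose most (4.79, SE 0.92, edgeR adjusted p = 0.00291), although its endogenous counts of 0, 4 and 1, set against 77, 39 and 42, lay near the floor. It was 4.20 (SE 0.66) without endogenous replicate 1. Esm1, of tip cells, fell most (-4.63, SE 0.20, edgeR adjusted p = 1.00e-06). In the endogenous cells all 6 lower genes stood above Cdh5 (1.96 TPM), from Nr2f2 at 6.78 TPM to Rgcc at 1291 TPM, with Esm1 at 91.0 TPM. Which cells held the RNA of these 6 was not tested.

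Leukocyte, macrophage and erythroid markers moved with the 5 genes that rose. Over all genes 31.3% were higher and 30.3% lower, the shares to set beside each marker list from here on. All 6 leukocyte markers were higher, their summed level being 3275 to 3285 TPM in the MSC-derived and 190 to 266 TPM in the endogenous libraries, with a log2 fold change of 4.20 for Ptprc, the leukocyte antigen CD45 (SE 0.22, edgeR adjusted p = 2.81e-06), and 5.32 for Laptm5. All 7 macrophage markers were higher, at 10060 to 10330 against 39.8 to 56.8 TPM, led by the complement gene C1qa (9.53). Of 9 megakaryocyte and platelet markers tested, 2 were higher (Pf4, 3.36, and Clec1b, 4.55) and 2 lower (Gp1bb, -2.32, and Gp1ba), at 208 to 221 against 39.4 to 60.3 TPM, and the integrin Itga2b did not pass the test (-0.35, edgeR adjusted p = 0.233). In every MSC-derived library the leukocyte and macrophage sums were each far above the sum of the 10 vessel genes.

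Blood stem and progenitor markers were at 57.4 to 60.0 TPM in the MSC-derived and 112 to 137 TPM in the endogenous libraries, with 1 of 8 higher (Spink2, 1.64) and 3 lower (Cd34 by the largest amount, -0.96), and the receptor Kit did not pass the test (0.27, edgeR adjusted p = 0.636). All 5 erythroid markers in the table were higher, at 23350 to 24620 against 5601 to 7647 TPM, Epor rising most (4.56). With endogenous replicate 1 left out, Kit was higher (0.91, SE 0.24, edgeR adjusted p = 0.00180), the blood stem list had 2 higher and 5 lower, and the platelet list had 2 higher and 4 lower of 10. In that fit 37.8% of all genes were higher and 38.6% lower. No gene of these lists was at 0 in all libraries of a group. The part of blood cells in the higher Pecam1, Cdh5, Tie1, Robo4 and Egfl7 was not tested.

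Markers of mural cells, the pericytes and smooth muscle that wrap vessels, were lower in the MSC-derived cells. Of 10 mural markers 0 were higher and 9 lower, at 35.7 to 39.1 against 465 to 485 TPM, with log2 fold changes of -3.28 for Pdgfrb, the PDGF receptor of pericytes (SE 0.10, edgeR adjusted p = 2.29e-07), and -4.78 for Myh11. The endogenous mural sums stood far above those of the 10 vessel genes (44.6 to 63.5 TPM). Which cells held the mural RNA was not tested. Lymphatic and sinusoidal markers summed to about the same level (67.5 to 68.0 against 59.9 to 72.7 TPM), but their members diverged: Stab2, a scavenger receptor of sinusoidal endothelium, had 2586, 2309 and 2119 counts against 5, 21 and 48 (6.49, SE 0.48, edgeR adjusted p = 1.61e-05), while the lymphatic regulator Prox1 had 7, 3 and 11 against 17, 41 and 65 (-2.57, SE 0.74, edgeR adjusted p = 0.0181). Of the 7 genes in that list, 3 were higher (Stab2, and Stab1 and Lyve1, which some macrophages also express) and 2 lower. In the MSC-derived cells Stab2 averaged 26.9 TPM and Cdh5 4.40 TPM. Which cells held the Stab2 RNA was not tested.

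**Figure D5:**
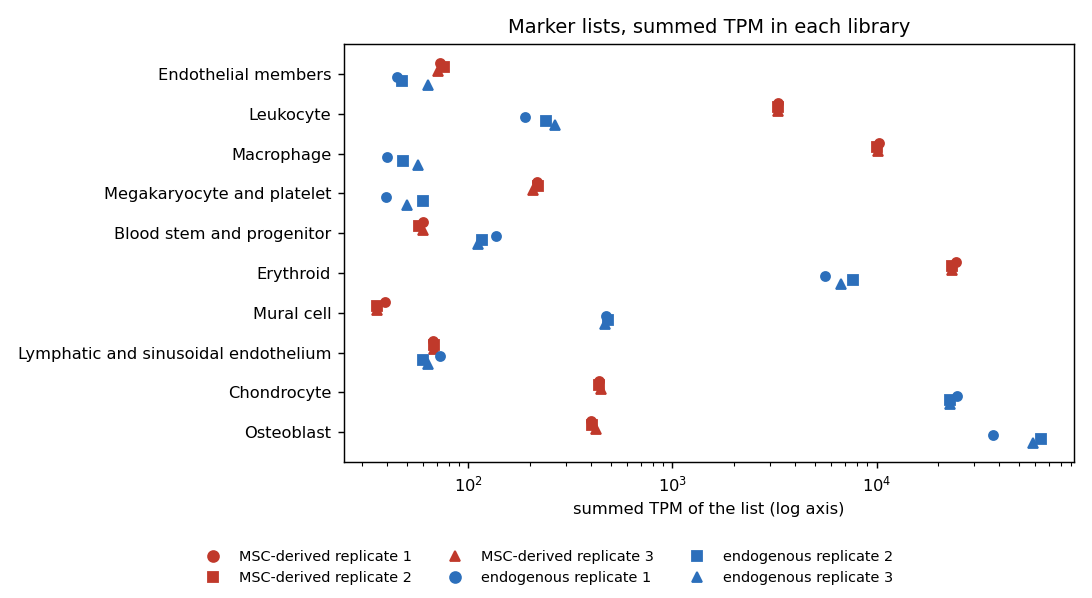
Summed TPM of the 10 endothelial genes and of 9 marker lists (rows) in each library on a logarithmic x axis, MSC-derived in red and endogenous in blue, with the replicate given by marker shape. The endothelial sums, 71.2 to 76.2 against 44.6 to 63.5 TPM, differ little beside the macrophage sums, higher in the MSC-derived libraries, and the chondrocyte and osteoblast sums, lower in them.

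The cells were labelled as chondrocytes. All 10 chondrocyte markers were lower in the MSC-derived cells, at 435 to 447 against 22970 to 24840 TPM, including Col2a1, the collagen of hyaline cartilage (-6.30, SE 0.06, edgeR adjusted p = 1.76e-08), and Cnmd, the cartilage inhibitor of vessel growth (-8.45). All 6 osteoblast markers were lower too, at 398 to 422 against 37040 to 64140 TPM, Bglap falling most (-7.73). In the MSC-derived cells Comp and Col2a1 were still abundant, at 288 and 121 TPM (percentiles 97.5 and 94.4 of all genes), far above any of the 10 vessel genes, while the other 8 markers lay between 0.207 TPM (Matn1) and 13.4 TPM (Sox9). Prrx1 itself was at 4.61 ± 0.305 TPM in the MSC-derived and 28.2 ± 8.81 TPM in the endogenous cells (SD, n = 3).

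The genes whose log2 CPM over the 6 libraries ran closest to that of Cdh5 were Ccz1 (Pearson r = 0.9996), Palb2 (0.999), Kcne3 (0.9984), Pacs1 (0.998) and Ltb (0.9969). These correlations are a description over 6 libraries that fall into 2 groups.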

How the data were processed

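The authors filtered the reads, aligned them with HISAT2 and Bowtie2 and quantified genes with RSEM. The labels' processing notes name Bowtie2 2.2.5, RSEM 1.2.12 and the build mm9, which differ in version from the methods. For each library the authors deposited expected counts (estimated reads per gene, without normalization) and TPM, which sums to 1000000 in a library. The table's FPKM, normalized signal and group averages were set aside, and 0 sample columns lacked a sample. The annotation at hand was on another build, so no gene coordinates are given, and promoter windows come from RefSeq on GRCm38.p6. RSEM divides reads that fit more than 1 transcript.

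Expected counts were rounded, which changed 20.6% of the values, and tested in R 4.3.3 by edgeR 4.0.16 (TMM, filterByExpr, glmQLFit and glmQLFTest, all 6 libraries, no covariate), with Benjamini-Hochberg adjustment over 14289 genes and a threshold of 0.05. The standard error is the log2 fold change divided by the root of the F statistic. Levels are TPM, and positive log2 fold changes mean higher in MSC-derived cells. No test was made for a list. The script was tested on simulated counts first. Alternatives were DESeq2 1.42.0, limma 3.58.1 on log2(TPM + 1) and log2(TPM + 0.1), other scalings and filters, a threshold of 0.001, leaving out each library, a block for the replicate number, and a robust edgeR fit, which was chosen after seeing the data. Plots were made with matplotlib 3.10.9.

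The 10 genes and all other lists were chosen with earlier results of these data known. The genes named are the 10, the called genes with the largest rise and fall in each list, some fixed partners and lineage markers (among them Kdr, Erg, Vwf, Ptprc and Col2a1), and the 5 genes most correlated with Cdh5. Genes named beyond these, such as those listed at 0 in endogenous replicate 1, were chosen after their values were seen. Replicate numbers come from the sample names and name libraries only. Total counts of 22060628 to 24881796 give intervals for counting error only.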

Additional observations from a re-analysis of the deposited data

How the results depend on the processing

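The other scalings and filters, DESeq2 and the robust edgeR fit kept 5 of the 10 genes higher and 0 lower. By limma on log2 TPM, in each of 3 versions, 3 were higher and 1 (Plvap) lower, and 34.4%, 33.9% and 35.0% of called genes were higher, compared with 50.8% by edgeR. At a threshold of 0.001, 1 of the 10 (Pecam1) was higher, and 2134 genes were higher and 2380 lower over the whole table. With each library left out, 4 to 7 of the 10 were higher and 0 lower, and over all genes 3672 to 5563 were higher and 3761 to 5686 lower. The highest counts came without endogenous replicate 1, which added Tek and Emcn. The estimate of Plvap changed sign to 0.07 with library totals alone (0.0739) and without endogenous replicate 3 (0.0735), its range with each library left out being -0.17 to 0.07, and that of Tek to -0.0517 without endogenous replicate 2, its range being -0.05 to 1.33 (called without endogenous replicate 1, the others not). Robo4 lost its call in 9 alternatives (adjusted p = 0.0809 to 0.157) and Tie1 in 3. The cause was not tested. With the replicate number as a block, 4 of the 10 were higher and 0 lower (Robo4 at adjusted p = 0.0926), against 4103 (28.7%) and 3920 (27.4%) of all genes, but the numbers did not pair the libraries, whose deviations from the group means correlated at 0.0129, 0.00221 and 0.0178 for numbers 1 to 3, endogenous replicate 2 correlating best with MSC-derived replicate 3. Genes near the floor of 3 counts, and the listed zeros of endogenous replicate 1, limit what the depth can show.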
